A study of Macaca mulatta with 2 samples.

Results

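The neurotrophin system of the prefrontal cortex was examined through 7 genes of a count table that lists 33618 genes. They were the ligands BDNF and NTF3, the Trk receptors NTRK2 and NTRK3, the receptor NGFR, and the coreceptors SORT1 and SORCS2 of the sortilin family. The set was chosen by gene family, with the ratio of the sevoflurane library to the control library already known. The low ratio of BDNF was among the values that chose the set, so the ratios below describe 2 libraries and test nothing. All 7 symbols were found in the table.

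The tissue came from infant rhesus macaques, and 1 library of each group was analysed here. The sevoflurane animal belonged to a group that inhaled about 2.5 to 3% sevoflurane for 4 h on each of postnatal days 7, 14 and 28. The study's methods place the later exposures on other days and state that cortex was taken directly after the final exposure. They also describe induction at a higher concentration, pure oxygen as the carrier gas and endotracheal intubation. Here oxygen and intubation are counted as part of the exposure. Both animals are labelled as 28 days old, and no treatment of the control animal is described. The study's design has 3 animals a group. Its methods list only females among the controls and a male in the anesthesia group. With 1 animal on each side, animal, exposure and, by the Y-linked reads below, sex differ together and cannot be told apart.

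Neurotrophins are secreted growth factors that support neuronal survival, dendrite growth and synaptic strength. They are made as precursors that proteases cleave. BDNF signals through TrkB (the product of NTRK2) and neurotrophin 3 (NTF3) mainly through TrkC (NTRK3). NGFR binds all neurotrophins, and together with sortilin-type receptors it binds the uncleaved precursors. In the cortex BDNF is made mostly by excitatory neurons, and its transcription follows neuronal activity through several alternative promoters.

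Depth was 16960880 assigned reads for the control against 9839105 for the sevoflurane library. Counts were scaled with edgeR's TMM factors to CPM, which are counts put on the same library size. A gene was tested if it had at least 1 CPM in either library, which kept 18050 genes and 6 of the 7 members, all but NTF3. A gene is said to be called when its log2 ratio of sevoflurane over control was at least 1 in size and its exact 95% interval left out equal expression. Intervals cover counting error only, not variation between animals. Reads on 7 Y-linked genes numbered 3 for the control animal and 4308 for the sevoflurane animal. Of the 53 marker genes on 10 lists for cortical and neighbouring cell types, 0 were without reads in both libraries. This does not show that every cell type was present. FOLR1 of the choroid plexus list had 0 control and 3 sevoflurane reads. Summed oligodendrocyte markers stood at 4056 CPM for the control against 1994 CPM after sevoflurane.

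BDNF was far lower in the sevoflurane library, whereas NTRK2, NTRK3, SORT1 and SORCS2 lay close to their control levels. BDNF had 732 control reads against 89 sevoflurane reads. These correspond to 43.6 CPM (95% Poisson interval 40.5 to 46.8) and 8.96 CPM (7.20 to 11.0). The sevoflurane level was 20.6% of the control level (interval 16.3 to 25.7%), or 4.86-fold lower. On the log2 scale with a prior count of 2 the ratio was -2.26 (interval -2.62 to -1.96). BDNF was the only member called lower, 1 of 6 tested, where 5.47% of all tested genes were called lower. No member was called higher (0 of 6), against 7.56% of all tested genes. Since this ratio took part in choosing the set, nothing is read from these shares. Among the 18050 tested genes, 161 had a log2 ratio as low, BDNF included, which is 0.892%.

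**Figure D1:**
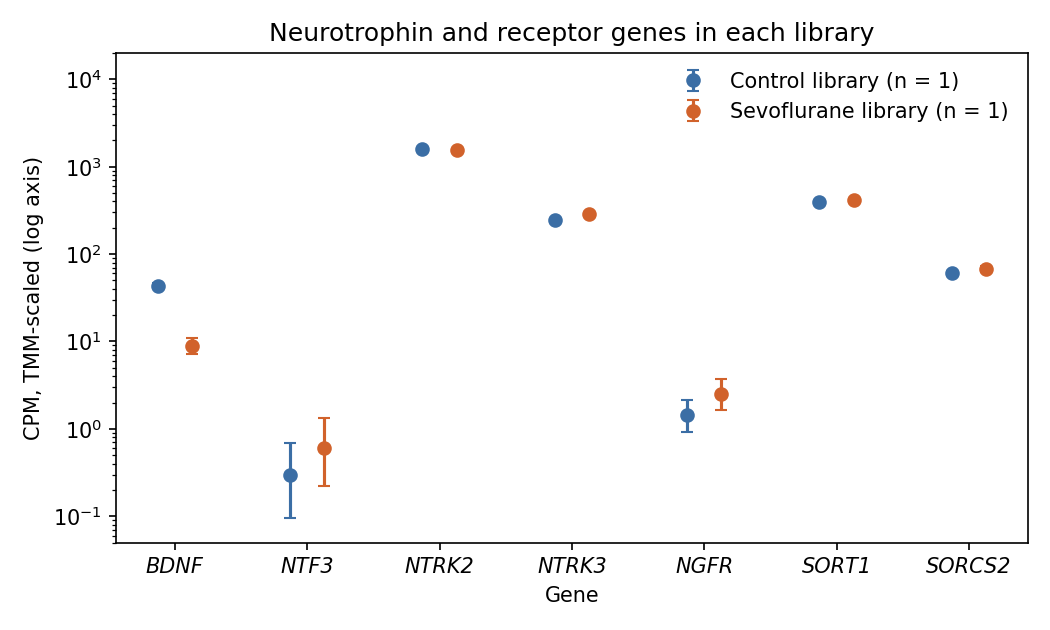
Scaled CPM (vertical log axis) of the 7 genes in the control library (blue) and the sevoflurane library (orange), 1 library each, with exact 95% Poisson intervals that cover counting error. BDNF drops from 43.6 to 8.96 CPM, while NTRK2, NTRK3, SORT1 and SORCS2 sit side by side and NTF3 and NGFR have wide intervals.

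Markers on the general neuron list differed much less than BDNF. The list of 10, which includes RBFOX3, SNAP25 and SLC17A7, had a median log2 ratio of -0.09 with 0 genes called, and ranged from -0.56 to 0.83. Over all tested genes 5.47% were called lower and 7.56% higher. The summed level of the neuron list was 8320 CPM for the control against 8562 CPM after sevoflurane. A separate list of 6 interneuron markers had a median of -0.27, with 4 intervals below equal expression (28.1% of all tested genes). PVALB on that list was called higher, at 2.42 (68 control and 221 sevoflurane reads). Expressed relative to the neuron marker median, the log2 ratio of BDNF was -2.17. In bulk tissue, fewer cells of a type and less RNA per cell cannot be told apart. Counts were given per gene, so the alternative promoters of BDNF were not resolved. In RefSeq's gene order BDNF overlaps a long non-coding RNA (LOC144334556) that is not listed in the table. Strandedness of the counting was not given in the sources used here, so reads of the 2 genes cannot be told apart.

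NTF3, the other ligand among the members, was barely detected. It had 5 control reads against 6 sevoflurane reads, or 0.298 CPM and 0.604 CPM. Both counts lie just above the floor of 3 reads, and the log2 interval ran from -0.95 to 3.07. A difference in NTF3 was not detectable at this depth. In RefSeq's gene order NTF3 overlaps the protein-coding LOC144332737 and the long non-coding RNA LOC144332739. Neither is among the counted genes, and any reads shared with them cannot be told apart.

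NTRK2, which encodes the BDNF receptor TrkB, had 26661 control reads against 15310 sevoflurane reads. The levels were 1587 CPM (1568 to 1606) and 1542 CPM (1517 to 1566). Its log2 ratio was -0.04 (interval -0.07 to -0.01), a level of 97.2% of control. The sign of so small a difference rested on the scaling, since the value was 0.053 relative to neuron markers. TrkB occurs as a full-length receptor of neurons and as a truncated form that astrocytes also express, and a count per gene does not separate them. Astrocyte markers were lower in the sevoflurane library, with 6 of 7 below 0, a median log2 ratio of -0.49 and a summed level of 4275 CPM against 6168 CPM. GFAP and AQP4 were the 2 of 7 called lower, where 5.47% of all tested genes were. SLC1A3 went the other way, at 0.27 (interval 0.24 to 0.31). The part of astrocytes in the NTRK2 value was not tested.

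NTRK3, which encodes the neurotrophin 3 receptor TrkC, was slightly higher in the sevoflurane library. It had 4132 control and 2876 sevoflurane reads, or 246 CPM (238 to 254) and 290 CPM (279 to 300). The log2 ratio was 0.24 (interval 0.17 to 0.31), which is 17.8% above control and short of the 2-fold threshold. NTRK3 overlaps LOC100425937 in RefSeq's gene order, which had 2033 and 1276 reads in the same order of libraries. It also overlaps the long non-coding RNAs LOC144330087 and LOC144330088, which are not among the counted genes. Any reads shared with these genes cannot be told apart here.

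The coreceptors differed little. SORT1, which encodes sortilin, a sorting receptor that also steers BDNF into the secretory pathway, had 6588 control and 4083 sevoflurane reads. Its levels were 392 CPM and 411 CPM, with a log2 ratio of 0.07 (interval 0.01 to 0.13). SORCS2, a coreceptor that acts with NGFR in binding precursor BDNF, had 1021 and 670 reads, or 60.8 CPM and 67.5 CPM. Its log2 ratio was 0.15 (interval 0.01 to 0.29). Both intervals lay just above equal expression. In RefSeq's gene order SORCS2 overlaps PSAPL1, which had 0 reads in both libraries. It also overlaps the long non-coding RNAs LOC144341116, LOC144341115 and LOC144340961, which are not among the counted genes. Any reads shared with these RNAs cannot be told apart.

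NGFR, the receptor shared by all neurotrophins, had few reads in both libraries. It had 24 control reads against 25 sevoflurane reads, or 1.43 CPM (0.915 to 2.13) and 2.52 CPM (1.63 to 3.72). The log2 ratio of 0.76 had an interval from -0.05 to 1.69, which includes equal expression. These counts could not separate an unchanged NGFR level from a 2-fold higher one. Meningeal markers (DCN, LUM, COL1A1 and COL1A2) stood in sum at 203 CPM for the control against 344 CPM after sevoflurane, with COL1A1 called higher, COL1A2 at 0.60, and DCN and LUM at 0.06 and -0.11 with intervals that included equal expression. Their part in the NGFR value was not tested.

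Leaving size aside, 2 of the 6 tested members, BDNF and NTRK2, had intervals wholly below equal expression, where 28.1% of all tested genes did. Intervals wholly above it were found for 3 of 6 (NTRK3, SORT1 and SORCS2), against 28.4% of tested genes. The median log2 ratio of the tested members was 0.11, beside -0.0048 over all tested genes. The quartiles of all tested genes spanned -0.34 to 0.37, and NTRK2, NTRK3, SORT1 and SORCS2 lay inside that span.

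**Figure D2:**
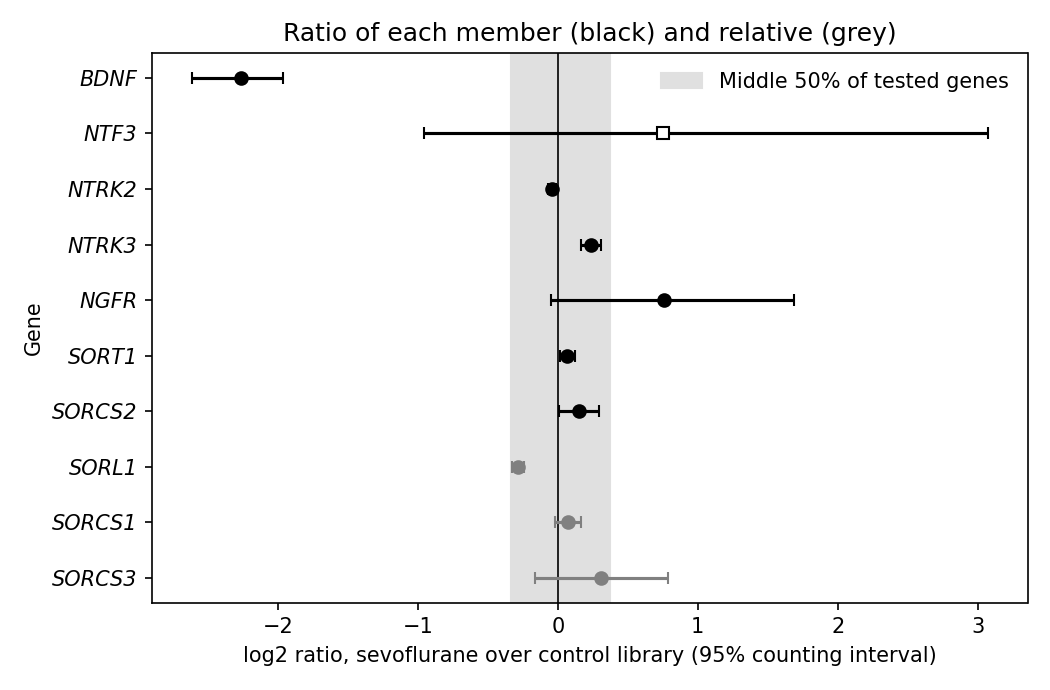
The log2 ratio of sevoflurane over control (horizontal axis) with its 95% counting interval for the 7 members (black) and their tested relatives (grey), and in light grey the span from -0.34 to 0.37 between the quartiles of all tested genes. The open square marks NTF3, which was below 1 CPM in both libraries. BDNF at -2.26 lies apart, and the intervals of NTRK2, NTRK3, SORT1 and SORCS2 stay within 0.31 of equal expression.

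Ratios of reads between a receptor and BDNF within a library do not depend on library scaling, and gene length cancels when such ratios are compared between libraries. Levels of different genes were not ranked, because no transcript lengths were used. The control library held 36.4 NTRK2 reads for each BDNF read and the sevoflurane library 172. This ratio was 4.72-fold higher after sevoflurane (exact conditional interval 3.78 to 5.96). NTRK3 went from 5.64 to 32.3 reads for each BDNF read, 5.72-fold higher (4.56 to 7.25). SORT1 went from 9 to 45.9, 5.10-fold higher (4.07 to 6.45), and SORCS2 from 1.39 to 7.53, 5.40-fold higher (4.23 to 6.94). NGFR, with few reads, went from 0.0328 to 0.281, 8.57-fold higher with a wide interval (4.47 to 16.3). Since every one of these pairs shares the BDNF counts, they restate the BDNF difference against different partners.

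Between receptors the balance shifted less. NTRK3 reads for each NTRK2 read went from 0.155 to 0.188, a log2 change of 0.28 (interval 0.20 to 0.35). SORT1 over NTRK2 changed by 0.11 (0.05 to 0.17). SORCS2 over SORT1 changed by 0.08, with an interval from -0.07 to 0.24 that includes no change. In the order of the ratios, from BDNF through NTRK2, SORT1, SORCS2 and NTRK3 to NGFR, the neighbours SORT1 and SORCS2 did not differ beyond counting error. The same held for SORCS2 and NTRK3, whose pair ratio changed by 0.08 (-0.07 to 0.24), and for NTRK3 and NGFR (0.58, interval -0.29 to 1.46). BDNF took 1.87% of the 39163 reads on the 7 genes in the control (exact interval 1.74 to 2.01%) and 0.386% of 23059 in the sevoflurane library (0.310 to 0.475%).

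Of the 3 tested relatives outside the set, 0 were called, where 5.47% of all tested genes were called lower and 7.56% higher. NTF4, which encodes neurotrophin 4, had 0 control and 2 sevoflurane reads, under the floor of 3 reads, so no fold is given. SORL1, a sorting receptor of the same family as sortilin, had 15447 and 7493 reads and a log2 ratio of -0.28 (interval -0.32 to -0.24). SORCS1 had a log2 ratio of 0.07 (-0.02 to 0.17) and SORCS3, with 91 and 67 reads, one of 0.31 (-0.16 to 0.79). Among the 9 tested members and relatives, BDNF was the only gene called. Its ratio took part in choosing the set, so nothing is read from this count.

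**Figure D3:**
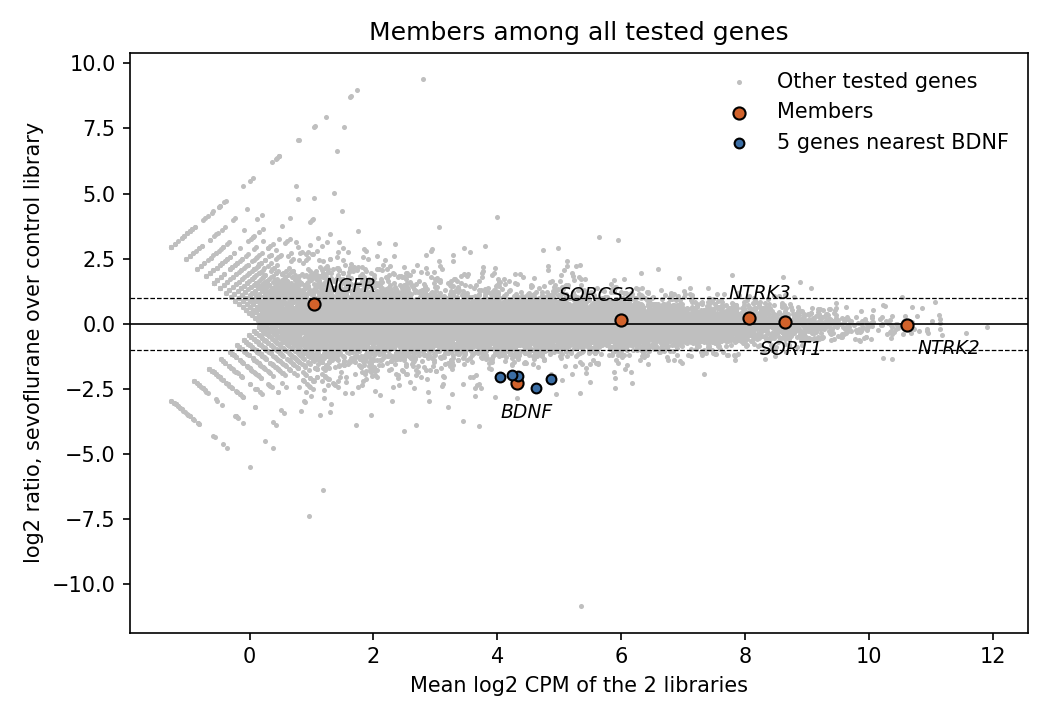
The log2 ratio of sevoflurane over control (vertical axis) against the mean log2 CPM of the 2 libraries (horizontal axis) for the tested genes (grey), with the 6 tested members in orange, the 5 genes nearest to BDNF in blue and dashed lines at a log2 ratio of -1 and 1. BDNF, at -2.26, lies below the lower line, and the other members lie between the lines.

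The genes most like BDNF were taken as the 5 tested genes at the shortest distance in mean log2 CPM and log2 ratio, a likeness over 2 libraries only. They were CNTN6 (674 control and 99 sevoflurane reads, distance 0.27), LOC106995557 (623 and 94 reads, distance 0.32), GPR37 (559 and 79 reads, distance 0.35), RXFP1 (975 and 102 reads, distance 0.37) and PPEF1 (1020 and 138 reads, distance 0.57). Their log2 ratios ran from -2.48 in RXFP1 to -1.95 in LOC106995557. The ratio was part of the distance, so this closeness was set by the selection.

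The gene lists below were written with earlier results of these data known, so nothing is read from their shares. Genes that process, carry or release neurotrophins were mixed (median -0.05). Of 12 tested genes, 1 was called lower (5.47% of all tested genes) and 0 higher (7.56%). The called gene was PCSK1, a prohormone convertase of the regulated secretory pathway, which went from 4563 reads to 1219, a log2 ratio of -1.14 (interval -1.24 to -1.05). PLAT, which encodes tissue plasminogen activator, had the highest value with 166 and 171 reads (0.79, interval 0.49 to 1.12). FURIN, a protease that cleaves neurotrophin precursors, stood at 0.28. SYT4, a synaptotagmin found on BDNF vesicles, stood at -0.83 without being called. MMP7 had 0 reads in both libraries, and PCSK6 and CADPS2 were not listed under these symbols.

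Of the Trk adaptors and effectors, 1 of 25 tested genes was called lower (5.47% of all tested genes) and 0 higher (7.56%). Their median was -0.04. SHC4, a Shc-family adaptor, had 62 and 7 reads, a log2 ratio of -2.17 (interval -3.76 to -1.26). The highest value belonged to AKT2, a kinase downstream of PI 3-kinase, at 0.56 (1845 and 1605 reads). Intervals lay below equal expression for 9 of the 25 (28.1% of all tested genes) and above it for another 9 (28.4%). The adaptor SHC3 of neurons stood at -0.58, whereas the phospholipase PLCG1, which docks on activated Trk receptors, stood at 0.27. The 13 tested NGFR partners and proteases that cleave NGFR had a median of 0.00. Of these, 1 was called lower (5.47% of all tested genes) and 0 higher (7.56%). The called gene was RIPK2, an adaptor kinase, with 229 and 32 reads (-2.03, interval -2.66 to -1.54). RTN4R, the Nogo receptor that pairs with NGFR, was the highest at 0.62, and BEX3 was found only under its older symbol NGFRAP1, at 0.01.

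Regulators of BDNF transcription included the largest difference on any of the pathway lists, while most of the list stood slightly higher. Of 20 tested genes, 2 were called lower (5.47% of all tested genes) and 0 higher (7.56%), with a median log2 ratio of 0.23. NPAS4, a transcription factor induced by neuronal activity that binds BDNF promoters, had 394 and 12 reads, a log2 ratio of -4.12 (interval -5.24 to -3.46). BHLHE40, a repressor that also acts on BDNF, had 1600 and 420 reads (-1.17, interval -1.33 to -1.01). CREB1, which encodes the transcription factor CREB, stood at 0.39, and its coactivators CREBBP and CRTC1 at 0.65 and 0.62. USF2 had the highest value, at 0.75. The partner of NPAS4, ARNT2, stood at -0.34. Intervals lay above equal expression for 12 of the 20 (28.4% of all tested genes) and below it for 5 (28.1%).

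Of 13 tested genes that BDNF and neuronal activity are known to induce, 12 had log2 ratios below 0. Called lower were 4 of 13 (5.47% of all tested genes were), and 0 were called higher (7.56%). Their median log2 ratio was -0.68, beside -0.0048 over all tested genes. This list was written with earlier results of these data known, so the values describe it and nothing is read from the shares. The immediate early gene FOS (481 and 55 reads) was the lowest at -2.34. The ERK phosphatase gene DUSP6 (2268 and 373 reads) stood at -1.84, and the Sprouty genes SPRY2 and SPRY4, which encode inhibitors of receptor tyrosine kinase signalling, at -1.10 and -1.03. VGF, which encodes a secreted neuropeptide precursor, stood at -0.69, NPTX2, which encodes a neuronal pentraxin, at -0.49, and SCG2, a secretogranin gene, at -0.34. HOMER1 at -0.03, INHBA at -0.04 and NPY at 0.19 had intervals that included equal expression. Several of these genes respond to neuronal activity without BDNF, and BDNF itself is such a gene.

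**Figure D4:**
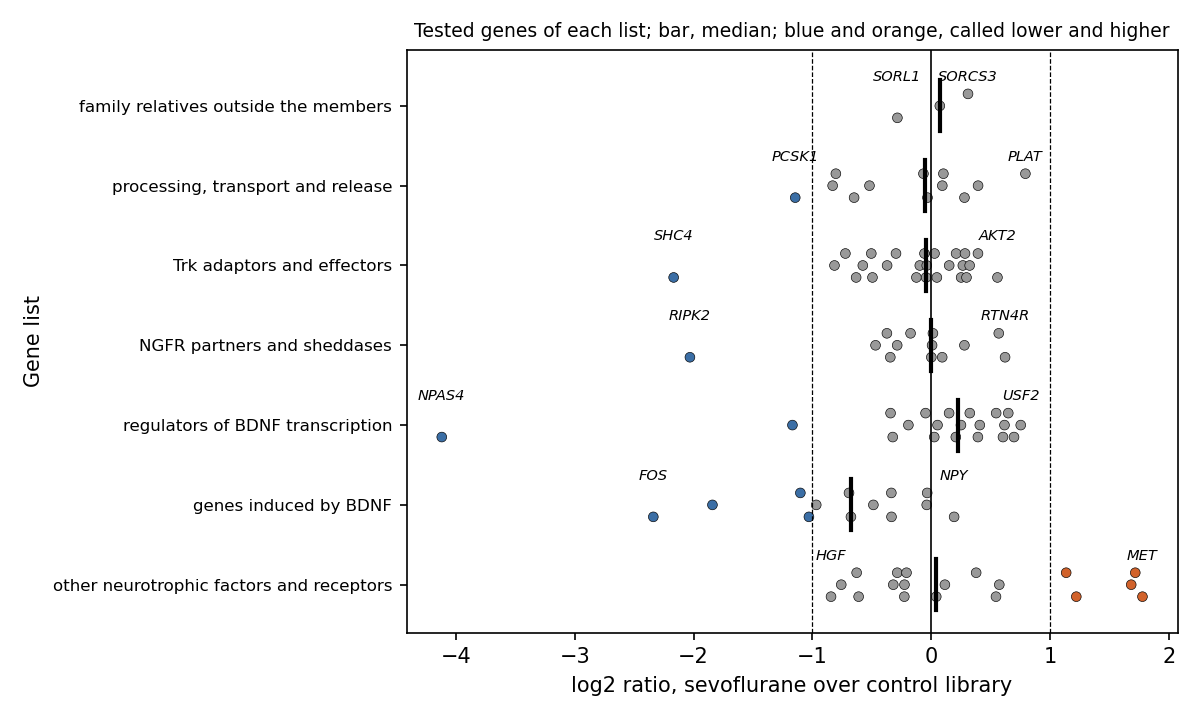
The log2 ratio of sevoflurane over control (horizontal axis) of each tested gene on the 7 lists of relatives, pathway genes and other neurotrophic factors, with a bar at each list's median, the lowest and highest gene named, and genes called lower in blue and higher in orange. The list named genes induced by BDNF has a median of -0.68, and several of its genes respond to neuronal activity without BDNF. NPAS4 lies farthest out at -4.12. The lists were written with earlier results of these data known, so they describe and test nothing.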

How the data were processed

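The authors deposited raw read counts per gene, as whole numbers without normalization, 1 column for each library. The submitters' processing notes list HISAT2 2.0.4. The counting tool, genome build and annotation are not given in the sources used here, so no coordinates are given.

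Libraries were assigned to groups by their titles. TMM factors came from edgeR 4.0.16 (R 4.3.3), over the genes that reached 1 CPM in at least 1 library, and log2 ratios used a prior count of 2. Intervals of ratios are Clopper-Pearson limits of a gene's share of reads from the sevoflurane library, those of levels are exact Poisson limits and those of pair ratios are exact conditional limits of the odds ratio (scipy 1.17.1, numpy 2.4.6, pandas 2.3.3, Python 3.11.15). Plots were drawn with matplotlib 3.10.9. With 1 library per group no replicate test could be fitted and p-values are absent. The procedure was tested on simulated counts that held counting error only. That test cannot show how the calls hold under variation between animals. No molecular identifiers are named, so reads may not be independent molecules. The intervals treat reads as independent and would be too narrow if they are not.

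The members and gene lists were chosen with earlier results of these data known. Some relatives are not reported here. Genes named are the members, their other relatives, the 5 genes nearest to BDNF and, of each pathway list, the genes called, the highest and the lowest; the other list genes named were chosen after their values were seen. Overlaps come from gene order in RefSeq's table of the telomere-to-telomere assembly MMU8v2.0. Alternative scalings were library totals, upper quartile, size factors from DESeq2 1.42.0 and a neuron marker reference. Other settings were filters at 5 CPM or 1 read, a prior count of 0.5, thinning of the control library to the sevoflurane depth, calls at 1.5-fold or 4-fold, and a 99.9% interval.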

Additional observations from a re-analysis of the deposited data

How the results depend on the processing

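BDNF kept its direction and its call under every alternative run, with log2 ratios from -2.28 to -2.17, and it was the only member called in each of them, the 1.5-fold and 4-fold thresholds included. Relative to the neuron marker median (a shift of -0.09), NTRK2 changed sign to 0.053, NTRK3 moved to 0.33, SORT1 to 0.16, and the NGFR interval then lay above equal expression. The interval of NTRK2 included equal expression with library totals, the 5 CPM filter and the wider interval. Those of SORT1 and SORCS2 did so with the 1 read filter and the wider interval. With the control library thinned, the NGFR value was 0.49. The numbers of all genes called lower and higher were 474 and 606 with the 5 CPM filter, which tests fewer genes, 2141 and 2604 at 1.5-fold, and 221 and 352 at 4-fold, as the thresholds require.

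The thinned control library left all 4 planned receptor over BDNF ratios within their intervals. No paired analysis was possible because only a single library stands in either group, so leaving out a replicate was not an option either. The floor of 3 reads, 0.179 CPM for the control against 0.302 CPM after sevoflurane, limits NTF3 and NTF4, and counts of 24 and 25 reads limit NGFR.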

Other observations

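Among 19 tested neurotrophic factors and receptors of other families, 5 were called higher (7.56% of all tested genes) and 0 lower (5.47%). The median log2 ratio was 0.04. This list too was written with earlier results known, so nothing is read from the shares. MET, the receptor of hepatocyte growth factor, went from 359 reads to 731, a log2 ratio of 1.78 (interval 1.60 to 1.97), while the gene of that factor, HGF, had the lowest value of the list at -0.84 (87 and 28 reads). IGF2, a growth factor gene, had 375 and 732 reads (1.72, interval 1.54 to 1.91). CNTFR, which encodes the receptor subunit that binds ciliary neurotrophic factor, had 697 and 962 reads (1.22, interval 1.08 to 1.37), beside 0.38 for its ligand gene CNTF.

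In the GDNF family, ARTN, the gene of the ligand artemin, had 32 and 64 reads (1.68, interval 1.13 to 2.42), and RET, the shared signalling receptor, 51 and 68 reads (1.14, interval 0.63 to 1.73). The coreceptor of artemin, GFRA3, had 22 and 8 reads with an interval from -2.08 to 0.52, and GFRA1, the coreceptor of GDNF, stood at -0.63. GDNF, NRTN, LIF and CDNF were below 1 CPM in both libraries, and GFRA2 was not listed under that symbol. Meningeal markers stood in sum at 203 CPM for the control against 344 CPM after sevoflurane, carried by COL1A1 (1.14) and COL1A2 (0.60), while the intervals of DCN and LUM included equal expression. Of the choroid plexus markers, TTR had 2 control and 31 sevoflurane reads (log2 interval 2.74 to 7.82), FOLR1 had 0 and 3 reads, and KL stood at -0.29 with an interval that included equal expression. The part of either tissue in these values was not tested.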
